A study of Homo sapiens with 6 samples.

Results

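Described here are 37 genes of homologous recombination and the Fanconi anemia pathway, out of 23228 genes in the read tables of Hep3B cells. They were picked by name for what their products do, with earlier results of these data known. All 37 passed the filter on low reads that 14537 genes passed, and each had at least 10 reads in every library. Hep3B cells come from a human hepatocellular carcinoma and are an established line. The study set 3 control libraries, of cells with a non-targeted shRNA, against 3 libraries labelled PELP1-KD, of cells with a lentiviral shRNA against PELP1, a scaffold protein of nuclear receptor signaling and of ribosome assembly. Both cell populations carried a lentiviral hairpin and were grown in RPMI medium, and the labels describe puromycin selection and pooled stable clones of 1 cell line. Titles name the first PELP1 shRNA while the protocol in the labels names both, so which hairpin each library carried is uncertain. No label says that replicates were separate cultures, so p values measure the spread between these libraries, which may be technical.

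Homologous recombination mends a broken chromosome by copying the intact sister chromatid. The broken ends are cut back to single strands, which pair with the intact copy with the help of BRCA2, and the joined molecules are then separated by helicases and nucleases. The Fanconi anemia proteins recognise crosslinks between DNA strands, attach ubiquitin to FANCD2 and FANCI, and hand the lesion to nucleases and recombination. In cycling cells, many of these genes are known to be transcribed mainly in S and G2 phases.

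Reads on genes numbered 26758363 to 34456542 per library. PELP1 itself had 4893, 4914 and 5102 normalized reads in control, against 4421, 4825 and 4840.2 in those labelled PELP1-KD. The groups did not overlap, and the mean of the latter was 94.5% of that in control (log2 fold change -0.082, adjusted p = 0.101 by edgeR, and 0.0106 with replicate number entered as a block). The exact two-sided permutation test over the libraries gave p = 0.1, the smallest that 3 against 3 can give. A knockdown of PELP1 RNA by more than this was not seen, and every direction given is between libraries labelled PELP1-KD and control. The study reported less PELP1 protein by Western blot in Hep3B cells with either of its PELP1 shRNAs. Protein was not measured in these libraries. Hepatocyte lineage markers marked the cells (8 of 8 tested), with a summed level of 9283 to 9489 RPKM in control and 8277 to 8507 in the libraries labelled PELP1-KD, of which 6 were lower and 2, AFP and HNF4A, higher. RPKM is reads per kilobase of exon and per 1e6 reads. Among 4 leukocyte markers, LYZ was lower (-1.55) and CD68 higher (0.48), with up to 4751 and 2001 reads, while PTPRC and CD3E had at most 5 and 2 reads. Their summed level was 109 to 117 RPKM in control and 63.3 to 64.2 in the libraries labelled PELP1-KD. Among 4 fibroblast markers, LUM (0.92) and COL1A2 (0.51) were higher and PDGFRB (-2.13) lower, with up to 656, 1085 and 163 reads, while DCN had at most 4, and the sum was 9.67 to 10.6 against 16.0 to 16.1 RPKM. Among 4 endothelial markers, PECAM1 had up to 74 reads and was not called, VWF had at most 3 and CDH5 and KDR were at 0 in every library, with sums of at most 0.510 RPKM in control and 0.479 RPKM in the other group. Their part in the values below was not tested.

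In the libraries labelled PELP1-KD, 11 of the 37 genes were lower, 4 were higher and 22 did not pass the test (edgeR's quasi-likelihood test, Benjamini-Hochberg adjusted p below 0.05 over all 14537 genes tested). The lower genes were FANCC, BRCA2, FANCF, WRN, PALB2, CHEK2, RBBP8, BRIP1, RAD51AP1, CHEK1 and NBN. The higher genes were EME1, RAD52, XRCC2 and FANCA. Over all genes tested, 53.6% were called, 26.8% as lower and 26.8% as higher, beside 40.5% of the 37 genes. The 11 lower genes stood near the share of all genes called lower. The 4 higher genes stood below the share called higher, and neither count was tested against its share. With replicate number entered as a block, 13 were lower and 7 higher, where 30.4% of all genes were called in each direction and 60.7% in all. DESeq2 called 10 lower and 2 higher, where it called 21.5% and 20.2% of the genes it tested (41.8% in all). With library totals in place of TMM scaling, 10 were lower and 6 higher, where 24.6% and 28.8% of all genes were (53.4% in all). In bulk RNA, fewer cells that express a gene and less RNA per cell cannot be told apart.

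The changes were small. FANCC alone passed a 2-fold change, where 7.65% of all genes were called and at least 2-fold changed (4.79% lower, 2.85% higher), and FANCC and BRCA2 passed 1.5-fold, where 14.7% of all genes did (8.02% as lower). Of the 37 genes, 32 lay within 1.2-fold of control, against 60.9% of all genes tested. When edgeR tested against a 1.2-fold change instead of against none, BRCA2, FANCC and FANCF were lower and 0 of the 37 were higher, with 11.1% and 10% of all genes called lower and higher (21.1% in all). The median log2 fold change was -0.056, beside 0.0044 over all genes tested, and the median of its absolute value was 0.13 beside 0.20. All genes tested include some with fewer reads than any of the 37, and these comparisons were not matched for reads. The standard error of a log2 fold change had a median of 0.057 and ran from 0.041 for FANCD2 to 0.13 for FANCB, the gene with the fewest reads. The 3 control libraries and the 3 libraries labelled PELP1-KD did not overlap for 13 genes in the lower and 5 in the higher direction, beside 29.3% and 29.5% of all genes (58.8% in all).

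**Figure D1:**
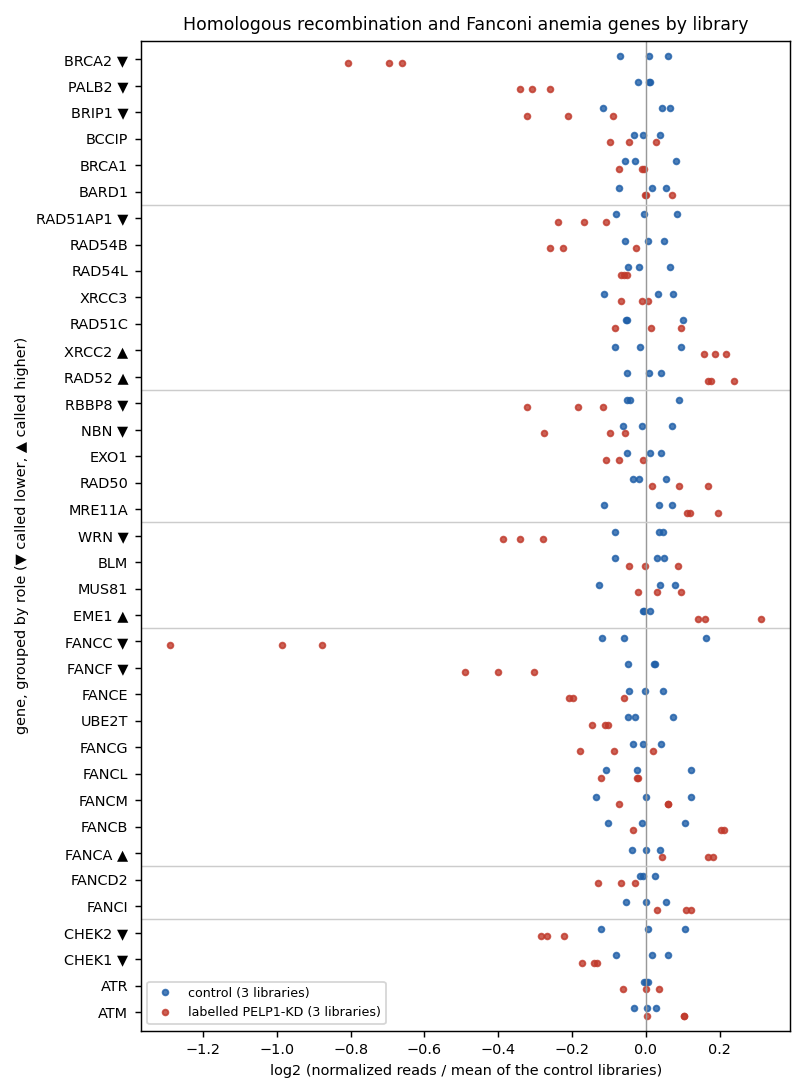
The log2 of the normalized reads of each of the 37 genes over the mean of the control libraries is plotted on the x axis, with 1 point per library (3 control, blue; 3 labelled PELP1-KD, red), and the y axis lists the genes by role, with triangles for called genes. The red points of FANCC and BRCA2 stand farthest to the left, and those of most other genes lie within the range from -0.5 to 0.4.

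The levels of these genes per length spanned a wide range. UBE2T, the ubiquitin-conjugating enzyme of the Fanconi pathway, stood highest in control at 41.7 ± 1.93 RPKM (SD, n = 3), and FANCI, BCCIP and FANCG followed at 23.8, 23.4 and 22.7 RPKM. FANCB was lowest at 1.09 ± 0.0787 RPKM, and FANCM, FANCC, ATM and BRCA2 lay between 2.03 and 2.25 RPKM. The median over the 37 genes was 7.77 RPKM, beside 7.91 over all genes tested. The gene with the largest fall, FANCC, was thus among the 3 lowest by level, and BRCA2 among the 5 lowest. In reads, the 37 genes held between 101 and 4017 per library.

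**Figure D2:**
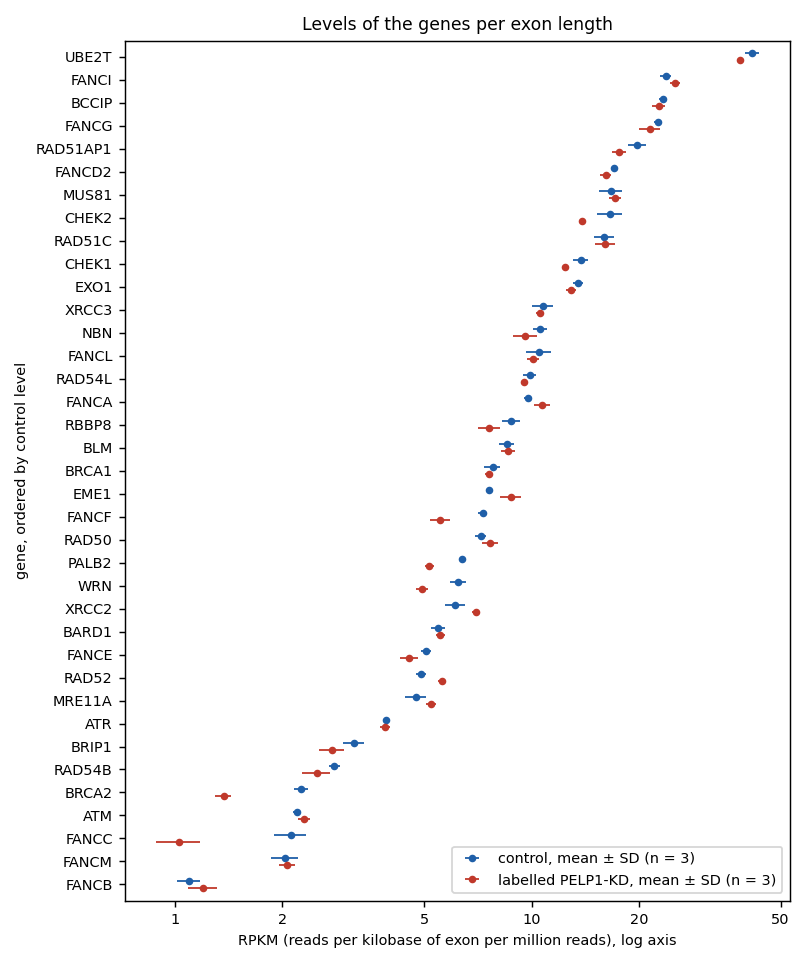
Levels in RPKM on a log axis are given for each gene, ordered by control level, as mean ± SD of the 3 control libraries (blue) and of the 3 libraries labelled PELP1-KD (red). Control levels run from 1.09 RPKM for FANCB to 41.7 RPKM for UBE2T. The bars of FANCC, BRCA2, FANCF, WRN and PALB2 stand apart between the groups. Those of some other genes do too, among them CHEK2, which was lower, and RAD52, EME1 and XRCC2, which were higher.

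Upstream sequence is shown for the 2 lower and the 2 higher genes with the smallest p values, a choice made by p value alone. The sequences come from RefSeq (GRCh38.p14) and were found without a mismatch in GRCh37, whose coordinates are given. They end at the base before the first exon of the read tables, are written 5′ to 3′ on the strand of the gene, and capitals mark the letters described after them.
BRCA2 (chr13:32889395-32889616, plus strand): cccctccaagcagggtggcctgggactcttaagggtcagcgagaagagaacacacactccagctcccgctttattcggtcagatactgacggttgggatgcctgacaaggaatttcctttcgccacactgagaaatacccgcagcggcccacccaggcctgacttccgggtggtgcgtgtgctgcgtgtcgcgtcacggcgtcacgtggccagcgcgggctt
FANCC (chr9:98079992-98080241, minus strand): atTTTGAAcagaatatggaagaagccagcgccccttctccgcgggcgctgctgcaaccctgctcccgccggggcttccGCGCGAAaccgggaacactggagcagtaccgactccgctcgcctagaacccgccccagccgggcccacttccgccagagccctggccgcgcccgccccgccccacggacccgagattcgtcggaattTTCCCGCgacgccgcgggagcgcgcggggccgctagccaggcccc
EME1 (chr17:48450340-48450580, plus strand): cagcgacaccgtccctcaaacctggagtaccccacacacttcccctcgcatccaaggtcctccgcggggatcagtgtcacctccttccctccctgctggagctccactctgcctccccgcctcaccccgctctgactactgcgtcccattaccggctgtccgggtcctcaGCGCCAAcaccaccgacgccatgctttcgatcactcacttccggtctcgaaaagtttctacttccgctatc
XRCC2 (chr7:152373251-152373476, minus strand): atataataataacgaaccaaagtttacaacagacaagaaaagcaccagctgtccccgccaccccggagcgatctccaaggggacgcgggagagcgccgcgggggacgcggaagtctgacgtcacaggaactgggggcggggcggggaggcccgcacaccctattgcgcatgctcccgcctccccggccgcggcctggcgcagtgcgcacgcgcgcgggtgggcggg

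Letters of 3 kinds known from promoters of cell cycle genes were searched on both strands of the 250 bases before the RefSeq start. These were the E2F letters (TTCCCGC or else TTCGCGC, and likewise TTGCCGC or else TTGGCGC), the NF-Y letters CCAAT, and the letters TTTGAA of the cell cycle genes homology region, and matches of different kinds did not overlap in these genes. RefSeq sequence was at hand for 32 of the 37 genes, without BCCIP, RAD54B, NBN, WRN and FANCI. E2F letters stood in 9 of the 32 (28.1%), beside 11.0% of all 27305 promoters and 17.2% of those of the genes tested. The 9 were RAD51AP1, RAD52, RAD54L, BLM, EME1, FANCA, FANCC, FANCG and FANCL, which makes 2 of the 9 lower genes with a sequence, 3 of the 4 higher and 4 of the 19 not called. FANCC held a pair of them, TTCCCGC beginning 45 bases and GCGCGAA 172 bases before the start, and TTTGAA at 248 bases. EME1 held GCGCCAA at 80 bases before the RefSeq start, which lies 9 bases past the end of the sequence printed for it. BRCA2 and XRCC2 held none of the letters searched. CCAAT stood in 15 of 32 promoters (46.9%, beside 33.0% of all promoters and 3448 of the 9865 of tested genes). These were 6 of the 9 lower genes, 1 of the 4 higher and 8 of the 19 not called. TTTGAA stood in 4 promoters (12.5%, beside 13.6% of all promoters and 8.72% of those of tested genes). A match describes letters only and is not a measured binding site.

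The BRCA mediators prepare the resected ends for strand exchange. Of their 6 genes, 3 were lower and 0 higher, with a median log2 fold change of -0.12. Beside this and each later group stand 26.8% of all genes tested called lower and 26.8% called higher. BRCA2, the central mediator (chr13:32889617-32973809, plus strand), had 841, 811 and 768 normalized reads in control replicates 1 to 3 and 509.8, 461 and 497 in those labelled PELP1-KD. The groups lay far apart, and BRCA2 held 60.7% of its control level (log2 fold change -0.72, SE 0.065, 95% interval -0.86 to -0.58, adjusted p = 1.60e-08). The study listed primers for BRCA2 among the genes it picked for follow-up, so its value here is not independent evidence. PALB2, which bridges BRCA1 and BRCA2 (chr16:23614483-23652678, minus strand), had 802, 818 and 820.4 normalized reads in control, against 657, 679 and 642 in the other group. Its groups did not overlap either, at 81.1% of control (log2 fold change -0.30, SE 0.057, 95% interval -0.42 to -0.18, adjusted p = 0.000171). BRIP1, a helicase that binds BRCA1 (chr17:59756547-59940920, minus strand), had 839.7, 851 and 752 normalized reads in control against 766, 704 and 651. Here the groups overlapped, since the first library labelled PELP1-KD lay above the third control library, and the fall to 86.8% of control passed the test (log2 fold change -0.20, SE 0.068, 95% interval -0.35 to -0.061, adjusted p = 0.017). That call was lost without control replicate 1 (-0.18, adjusted p = 0.0741), control replicate 2 (-0.17, adjusted p = 0.0901), the library labelled PELP1-KD replicate 2 (-0.20, adjusted p = 0.0546) or the library labelled PELP1-KD replicate 3 (-0.15, adjusted p = 0.0615). BRCA1, a ubiquitin ligase with its partner BARD1, had a log2 fold change of -0.028 with an interval of -0.13 to 0.072, which holds no change as large as that of PALB2. BARD1 had 0.022 and BCCIP, a BRCA2-binding protein, -0.038, and both overlapped between the groups.

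The strand exchange genes help the resected strand pair with the intact copy. Of their 7 genes, 1 was lower and 2 were higher, with a median log2 fold change of -0.024 and every gene within 1.2-fold of control. RAD51AP1, which stimulates strand pairing (chr12:4647950-4669213, plus strand), had 1496, 1406 and 1335 normalized reads in control, against 1309, 1258 and 1197 in those labelled PELP1-KD. Each of the latter lay below all controls, at 88.8% in the mean (log2 fold change -0.17, SE 0.054, 95% interval -0.28 to -0.058, adjusted p = 0.0117), and the call was lost without control replicate 1 (-0.13, adjusted p = 0.102). XRCC2, a strand exchange factor (chr7:152343587-152373250, minus strand), had 629.8, 584 and 556 against 686, 658 and 672 normalized reads. It was higher in each library labelled PELP1-KD than in any control (log2 fold change 0.19, SE 0.065, 95% interval 0.052 to 0.32, adjusted p = 0.02). This call was lost without control replicate 2 (0.18, adjusted p = 0.0629), control replicate 3 (0.15, adjusted p = 0.0853) or the library labelled PELP1-KD replicate 1 (0.17, adjusted p = 0.0527), and DESeq2 gave an adjusted p of 0.0607. RAD52, which anneals single strands, was higher too (log2 fold change 0.20, SE 0.070, 95% interval 0.049 to 0.34, adjusted p = 0.0241) and did not overlap between the groups. Its call was lost without control replicate 1 (0.17, adjusted p = 0.0979), control replicate 2 (0.20, adjusted p = 0.055) or the library labelled PELP1-KD replicate 1 (0.17, adjusted p = 0.0737), and under DESeq2 (adjusted p = 0.0934). RAD51C and XRCC3, which act together in a complex, had log2 fold changes of 0.0085 and -0.024. RAD54L and RAD54B, motor proteins that remodel DNA during strand exchange, had -0.059 and -0.16 and did not pass the test.

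End resection cuts the broken ends back. Of its 5 genes, 2 were lower and 0 higher, with a median log2 fold change of -0.063. RBBP8, the CtIP protein that starts resection (chr18:20513295-20606449, plus strand), had 952, 1045 and 946 normalized reads in control, against 864, 904 and 784 in those labelled PELP1-KD. The groups did not overlap, and RBBP8 held 86.7% of control (log2 fold change -0.21, SE 0.062, 95% interval -0.34 to -0.077, adjusted p = 0.00868). Its call was lost without control replicate 2 (-0.16, adjusted p = 0.0749), and 90 of its exon bases are shared with MIR4741 on the same strand. The 3 subunits of the complex that first binds the break had log2 fold changes of different sign. NBN was lower (log2 fold change -0.14, SE 0.057, 95% interval -0.26 to -0.022, adjusted p = 0.0431) with overlapping groups. That call was lost without control replicate 1 (-0.10, adjusted p = 0.213), control replicate 2 (-0.15, adjusted p = 0.087), the library labelled PELP1-KD replicate 2 (-0.16, adjusted p = 0.0591) or the library labelled PELP1-KD replicate 3 (-0.076, adjusted p = 0.201), under DESeq2 (adjusted p = 0.0642) and with library totals in place of TMM (0.0833). MRE11A, the nuclease of that complex, had 819.5, 799 and 721 normalized reads in control, against 894, 847 and 842 in the other group, with no overlap. Its log2 fold change of 0.14 did not pass the test (adjusted p = 0.0556), while with the replicate block it did (0.015). RAD50, an ATPase, had 0.092 with an adjusted p of 0.133, and 0.0355 with the block, a call lost again when a correction for GC content and length was added to the block (0.104). EXO1, a nuclease of long resection, had -0.063.

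Among the helicases and junction nucleases, 1 of 4 genes was lower and 1 higher. WRN, a RecQ helicase lost in Werner syndrome (chr8:30890778-31031277, plus strand), had 1151, 1159.7 and 1059.8 normalized reads in control, against 888, 926 and 859 in those labelled PELP1-KD. Every one of the latter lay below every control, at 79.3% in the mean (log2 fold change -0.34, SE 0.056, 95% interval -0.45 to -0.22, adjusted p = 3.99e-05). BLM, the RecQ helicase lost in Bloom syndrome, had 1237, 1255 and 1144 against 1288, 1210.0 and 1174 normalized reads. Its groups overlapped, and its log2 fold change was 0.014 (95% interval -0.098 to 0.13). EME1, the partner of the nuclease MUS81 (chr17:48450581-48458820, plus strand), had 567, 559.7 and 559 normalized reads in control, against 619, 628 and 697 in the other group. It stood higher in each library labelled PELP1-KD (log2 fold change 0.21, SE 0.066, 95% interval 0.069 to 0.35, adjusted p = 0.0124), with the largest value in replicate 3, and lost its call without the library labelled PELP1-KD replicate 3 (0.15, adjusted p = 0.0688). MUS81, which cuts joined DNA molecules with EME1, had a log2 fold change of 0.038.

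The Fanconi core complex with UBE2T attaches ubiquitin to FANCD2 and FANCI. Of these 9 genes, 2 were lower and 1 higher, with a median log2 fold change of -0.079. FANCC, FANCE and FANCF form a subcomplex, and these 3 had the lowest log2 fold changes of the 9. That of FANCE (-0.15) was close to that of UBE2T (-0.12), which is outside the subcomplex. FANCC (chr9:97861336-98079991, minus strand) had 292, 281 and 342 normalized reads in control, against 166, 154 and 125 in those labelled PELP1-KD. Even its highest value in the latter was well under the lowest control, and it held 48.6% of control (log2 fold change -1.04, SE 0.11, 95% interval -1.28 to -0.81, adjusted p = 1.79e-07). Of all genes tested, 4.57% had a lower log2 fold change. FANCF (chr11:22644079-22647387, minus strand) had 734, 773 and 772 against 575, 616 and 541 normalized reads. It also fell without overlap, to 76.0% of control (log2 fold change -0.40, SE 0.064, 95% interval -0.53 to -0.26, adjusted p = 3.07e-05). FANCE had 405, 393 and 419 against 389, 351 and 354 normalized reads, with no overlap, and its log2 fold change of -0.15 did not pass the test (adjusted p = 0.0947).

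The other core genes stayed nearer to control. FANCA (chr16:89803959-89883065, minus strand), in a subcomplex with FANCG, had 1845, 1894 and 1944 normalized reads in control, against 1952, 2149 and 2130.4 in the other group. It was higher in all 3 (log2 fold change 0.13, SE 0.047, 95% interval 0.034 to 0.23, adjusted p = 0.023), with 1328 of its exon bases shared with ZNF276 on the other strand. That call was lost without control replicate 1 (0.11, adjusted p = 0.104), control replicate 2 (0.13, adjusted p = 0.0639) or the library labelled PELP1-KD replicate 2 (0.11, adjusted p = 0.119). FANCG itself had -0.079. FANCL, the ubiquitin ligase subunit, and FANCB had -0.056 and 0.13, the latter with a wide interval of -0.15 to 0.41. FANCM, which anchors the complex to DNA, had 0.016. UBE2T had 1252, 1150.1 and 1166 against 1101, 1108 and 1075 normalized reads and did not overlap between the groups. Its log2 fold change of -0.12 missed the threshold (adjusted p = 0.0558) and passed it with the replicate block (0.017).

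The targets of the core complex, FANCD2 and FANCI, had small log2 fold changes of opposite sign. FANCD2 had 3148, 3236 and 3163 normalized reads in control, against 3120.5, 3036 and 2908 in those labelled PELP1-KD, a log2 fold change of -0.075. FANCI had 3682, 3547 and 3416 against 3859.6, 3826 and 3622, a log2 fold change of 0.087. Neither passed the test (adjusted p = 0.129 and 0.0875), and with the replicate block both did (0.04 and 0.0104).

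The checkpoint kinases signal the damage, with ATM and ATR upstream and CHEK2 and CHEK1 as their targets. Of the 4, the pair of downstream kinases was lower. CHEK2 (chr22:29083731-29137822, minus strand) had 954, 1118 and 1042 normalized reads in control, against 853, 889 and 862 in those labelled PELP1-KD. The groups did not overlap, and CHEK2 held 83.6% of control (log2 fold change -0.26, SE 0.060, 95% interval -0.38 to -0.13, adjusted p = 0.00126). CHEK1 (chr11:125495036-125546150, plus strand) had 1413, 1454 and 1319 against 1266, 1273 and 1239 normalized reads. It fell to 90.3% of control (log2 fold change -0.15, SE 0.050, 95% interval -0.25 to -0.043, adjusted p = 0.0182), a call lost without control replicate 1 (-0.14, adjusted p = 0.0705) or control replicate 2 (-0.12, adjusted p = 0.108). ATM and ATR had log2 fold changes of 0.070 and -0.0084, with intervals of -0.044 to 0.18 and -0.12 to 0.099. The deposited values of 15 of the 37 genes were not whole numbers in at least 1 of the 6 libraries, so reads shared with other places or overlapping genes entered them. These were FANCG in 4 libraries, BCCIP and FANCD2 in 3, BRIP1 in 2, and 11 genes in 1 library, CHEK2 and BRCA2 among them. CHEK2 and FANCD2 are known to have partial copies elsewhere in the genome.

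The genes around each of the 37 on its chromosome were set beside it, as the median log2 fold change of the other tested genes that start within 1 Mb. Over all genes tested, 26.8% were called lower and 26.8% higher. All 5 such genes around BRCA2 were lower, with a median of -0.95. FRY, N4BP2L1, N4BP2L2 and PDS5B had log2 fold changes of -1.20, -1.16, -0.95 and -0.90, each below that of BRCA2, and STARD13 had -0.21. Within 5 Mb of BRCA2, a distance chosen after the data had been seen, 20 of 30 genes were lower and 4 higher, with a median of -0.80. BRCA2 thus fell with the genes beside it.

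The genes around FANCC stayed nearer to control. Its 8 neighbours had a median of -0.12, 2 were lower and 0 higher, and 0 of the 8 stood below FANCC. Within 5 Mb the median of 61 genes was -0.040. FANCF had 3 neighbours, of which GAS2 (-0.75) and SVIP (-0.34) were lower and ANO5 had -0.067. PALB2 had 9 neighbours with a median of -0.20, of which 6 were lower and 0 higher. WRN had 12 with a median of 0.049, of which 3 were lower and 4 higher, and among the lower was PURG (-1.18), which shares 454 exon bases with WRN on the other strand. RBBP8 was lower while 7 of its 9 neighbours were higher, with a median of 0.43. Around FANCE, 12 of 19 genes were lower and 3 higher, with a median of -0.14 close to its own -0.15. CHEK2 had 20 neighbours with a median of 0.024.

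**Figure D3:**
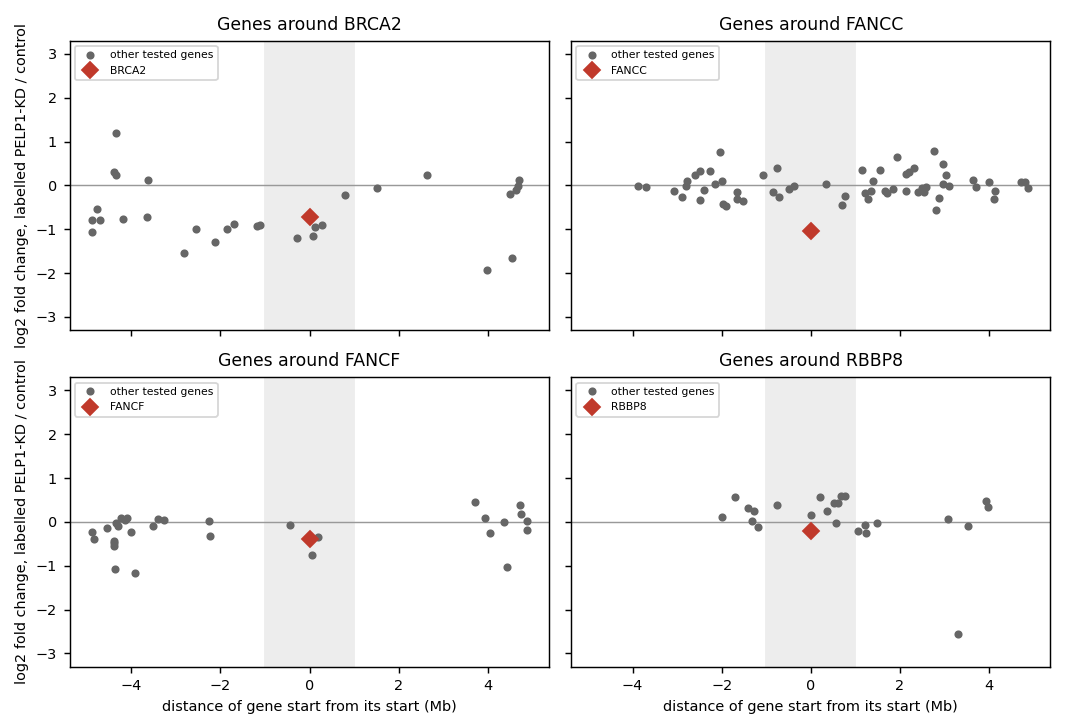
Log2 fold changes of tested genes are plotted against the distance of their start from the start of BRCA2, FANCC, FANCF and RBBP8 (red diamonds), with 1 grey point per gene and the 1 Mb window shaded. The points around BRCA2 lie mostly below 0 (median -0.80 within 5 Mb), those around FANCC scatter about 0 (median -0.040), and RBBP8 lies below most of its neighbours.

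Over the 35 genes with at least 3 neighbours, the log2 fold change of the gene and the median of its neighbours had a Pearson's r of 0.53 and a Spearman's rho of 0.46 across genes. Without BRCA2 and FANCC, they were 0.37 and 0.39 over 33 genes. All points share the same 6 libraries, and genes near each other share neighbours, so these values are a description.

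**Figure D4:**
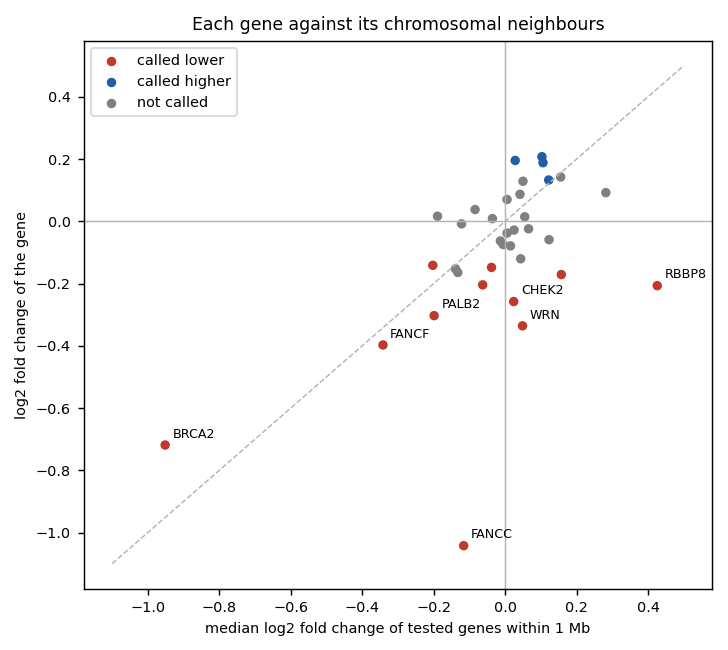
The log2 fold change of each of the 35 genes with at least 3 neighbours is plotted against the median log2 fold change of tested genes within 1 Mb, with the dashed line marking equal values and colors marking the call. BRCA2 lies at the lower left near the line, FANCC far below it at -1.04, and RBBP8 to the right of 0.

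Other genes of the same and of related pathways were counted from lists in the same fit. Beside each list stand 26.8% of all genes tested called lower and 26.8% called higher (53.6% in all). Of 34 further homologous recombination and Fanconi genes tested, 8 were lower and 4 higher (35.3% called), with a median log2 fold change of -0.037. The lower ones with the smallest p values were RMI2 (-0.94) and RMI1 (-0.43), which bind BLM, and RPA1 (-0.37), a subunit of the protein that coats single strands. The higher ones with the smallest p values were SLX4 (0.29), a nuclease scaffold, WDR48 (0.16) and C17orf53 (0.19).

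Among 20 checkpoint genes and adaptors of damage sites, 2 were lower, RNF8 (-0.54) and H2AFX (-0.34), and 5 higher, with RAD9A (0.25), ATRIP (0.27) and FAM175A (0.31) at the smallest p values. ATRIP is the partner of ATR, itself not called. Of 11 end joining genes, 4 were lower and 4 higher. The smallest p values were those of XRCC5 (-0.34), PARP1 (-0.31) and PRKDC (-0.19) among the lower, and of NHEJ1 (0.38), DCLRE1C (0.35) and XRCC4 (0.25) among the higher. Mismatch repair had 4 lower genes of 7, among them MSH6 (-0.30) and PMS1 (-0.41), and 0 higher.

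Most genes of the cell cycle lists were lower. Of 20 S phase genes, 15 were lower, of which MCM3 (-0.56), SLBP (-0.40) and RRM1 (-0.36) had the smallest p values, and 1, MCM6 (0.32), was higher, with a median of -0.23. Of 20 mitosis genes, 16 were lower, of which BIRC5 (-0.47), PLK1 (-0.45) and CENPF (-0.42) had the smallest p values, and 0 were higher, with a median of -0.24. The 37 genes, many of which are known to be transcribed in the same phases, had a median of -0.056 and 11 lower. The difference between the lists was not tested. The study also listed primers for MCM3 and CCNE1 of the S phase list and BIRC5 of the mitosis list. Their values here are therefore not independent evidence.

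**Figure D5:**
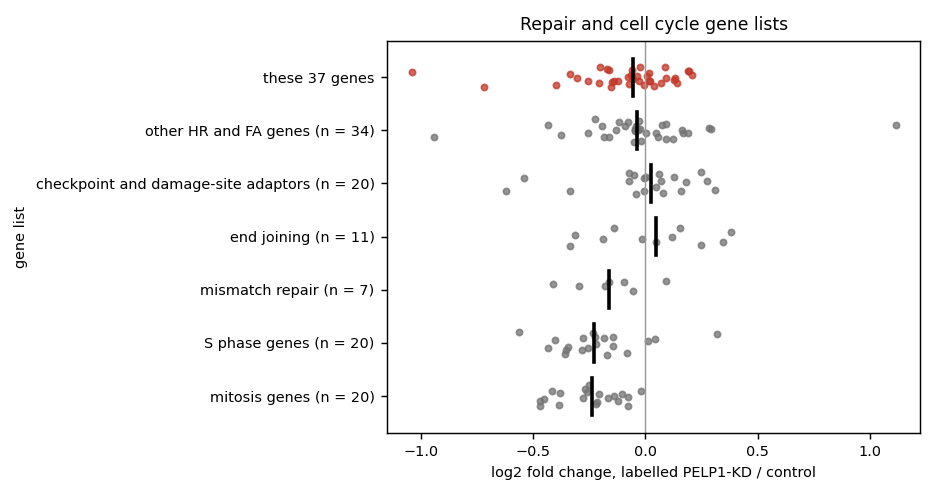
Log2 fold changes of every tested gene of each list are shown as points, with a black bar at the median, and the 37 genes in red at the top. The medians of the S phase and mitosis lists (-0.23 and -0.24) lie to the left of that of the 37 genes (-0.056).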

How the data were processed

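RNA-seq of Hep3B cells was analysed in 3 control libraries and 3 libraries labelled PELP1-KD, grouped by their labels. The authors deposited estimated counts per gene, made per the file headers with featureCounts v1.5.0-p1 (stranded, hg19 exons, minimum mapping quality 2, multiply mapped and overlapping reads shared as fractions). The submitters' processing notes name HISAT2, whereas the study's methods name TopHat2 and HTSeq. The labels and the methods also differ on the extraction, the library kit and paired reads. Between 10.6% and 13.3% of values were not whole, and they were rounded.

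Fold changes came from edgeR 4.0.16 in R 4.3.3 (TMM, filterByExpr, robust glmQLFit, glmQLFTest), with Benjamini-Hochberg adjustment over 14537 genes, a threshold of 0.05, and 95% intervals from edgeR's moderated degrees of freedom. Standard errors were taken as the size of the log2 fold change divided by the root of its F statistic. Normalized reads are reads scaled to the geometric mean of the TMM library sizes, and RPKM was computed from these sizes and the deposited exon lengths. The methods were tested on simulated counts with 2-fold changes and no differences between replicate numbers. Smaller changes, such as most of those given here, were not simulated.

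The replicate numbers were checked for pairing. Deviations of same-numbered libraries from their group means correlated at 0.336, 0.247 and 0.666 over 6370 genes with a log2 CPM above 5, so the block was run as an alternative. Crossing numbers 1 and 2 gave 0.418 (control replicate 2) and 0.244 (control replicate 1), and only replicate 3 stood apart by its values. Replicates differed by more than sampling noise (chi-square per degree of freedom 1.93 to 6.93). Of introns of the 37 genes, 98.7% had GT or GC and AG ends in GRCh37, so hg19 coordinates were read there.

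The members, lists and tests were chosen with earlier results of these data known. Values per library were given for called genes with the 12 smallest p values, genes at least 1.5-fold changed and the leading gene of each role, and of related lists for up to 3 called genes per direction. MRE11A, BLM, FANCE, UBE2T, FANCD2, FANCI and FANCA were added for their complexes after their values were seen. The alternatives were other normalizations, DESeq2 1.42.0, filters, a stricter threshold, glmTreat, the block and leaving out libraries. Results for some related genes are not reported here.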

Additional observations from a re-analysis of the deposited data

How the results depend on the processing

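With DESeq2's size factors, upper-quartile scaling or library totals, with no filter and with at least 10 reads in every library, the counts of lower and of higher genes stayed within 1.5 times those reported. At an adjusted p below 0.01, 7 of the 37 genes were lower and 0 higher, beside 3055 lower and 2983 higher of 14537 genes. Tested against a 1.2-fold change with glmTreat, 3 were lower and 0 higher, beside 1613 lower and 1453 higher of all genes. DESeq2 called 10 lower and 2 higher, without XRCC2, RAD52 and NBN, and called 41.8% of the genes it tested. The replicate block gave 13 lower and 7 higher, adding UBE2T and FANCD2 as lower and FANCI, RAD50 and MRE11A as higher, and changed no other call among the 37. With a GC and length correction added to the block, 14 were lower and 6 higher, beside 4682 and 4420 of all genes, with FANCG added as lower and RAD50 no longer called. Leaving out 1 library gave between 7 and 13 lower (7 without control replicate 1 or without control replicate 2) and between 1 and 6 higher (1 without control replicate 2, 2 without the library labelled PELP1-KD replicate 1), between 3387 and 3989 lower and between 3379 and 3949 higher of all genes, and a median log2 fold change of the 37 genes between -0.060 and -0.039. Of the 15 called genes, 6 were called in all fits that left out 1 library: PALB2, BRCA2, WRN, FANCC, FANCF and CHEK2. Without replicate 3 of both groups, an alternative added after the data had been seen, 12 were lower and 4 higher, beside 4046 lower and 3910 higher of all genes. There XRCC2, NBN and EME1 lost their calls, and RAD50, FANCG, UBE2T and FANCI gained one.

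Genes that changed direction were uncalled and near 0. Leaving out 1 library moved the log2 fold change of BRCA1 between -0.052 and 0.016, BARD1 between -0.013 and 0.051, RAD51C between -0.035 and 0.062, XRCC3 between -0.074 and 0.013, BLM between -0.024 and 0.046, MUS81 between -0.021 and 0.078, FANCL between -0.10 and 0.012, FANCM between -0.046 and 0.085 and ATR between -0.031 and 0.019. FANCM had -0.0078 with the block and a GC and length correction and -0.011 with that correction alone, and ATR had 0.0084 with library totals and 0.021 without replicate 3 of both groups. The cause was not tested. FANCB, with about 100 reads per library, has the widest interval, and smaller changes could not be detected in it.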
